A study of Mus musculus with 7 samples.

Results

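The Tec family of cytoplasmic tyrosine kinases was examined by RNA sequencing in C3H10T1/2, a mesenchymal cell line from mouse embryos. The family genes examined were those with the symbols Tec, Bmx, Btk and Txk, and all 4 had a row among the 18468 genes in the table of counts. They were selected on their read counts for purmorphamine against DMSO, in which Tec and Bmx move in opposite directions, so these values are given as a description and without a test. After 12 h of serum starvation the cells were exposed for 48 h, still without serum, to 2 μM purmorphamine, a small-molecule agonist of the 7-transmembrane protein Smoothened (n = 4 libraries, numbered 5 to 8), or to 0.02% DMSO as vehicle (n = 3 libraries, numbered 2 to 4). No genetic change was introduced in either group, and the cells are a single established line. The labels do not say whether libraries of a group came from separate cultures, so p-values measure the spread between these libraries, which may be technical.

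Tec kinases relay signals from receptors at the cell surface. Most members carry a PH domain that binds the lipid PIP3, the product of phosphoinositide 3-kinase (PI3K), and are thereby brought to the membrane, where Src family kinases phosphorylate them. Once active they phosphorylate phospholipase Cγ and other substrates, which raises intracellular calcium. Btk is best known for its role in B cells, where its loss stops their maturation, and Txk is a kinase of T cells. Txk differs from the others in lacking a PH domain. Tec is known from haematopoietic cells and liver, and Bmx from the endothelium of arteries and from myeloid cells.

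Each library held between 14337225 and 14342154 reads, since the authors had resampled the reads to equal numbers. A gene with no read may still have an expected count of up to 3, a limit that covers counting error only. After low counts were filtered out 12388 genes remained, of which 62.5% were called as changed by edgeR's quasi-likelihood test at an adjusted p under 0.2, and 31.4% were higher and 31.1% lower with purmorphamine. With library totals in place of TMM factors 4650 genes were higher and 3163 lower, where 3887 and 3854 were so with TMM factors. Gli1, the transcription factor whose gene is a target of Smoothened signaling, served as a check of the treatment and had at most 12 reads in a vehicle library and at least 2522 in a purmorphamine library. Markers of mesenchymal cells were abundant, with all 11 above 3 reads in every library and summed reads from 379407 to 400184 with vehicle and from 361616 to 392659 with purmorphamine. Within these sums single markers moved both ways, with Vim at a log2 fold change of -0.96 and Pdgfra at 0.76. Markers of haematopoietic cells were at or near 0. Only 10 of the 19 listed had a row, their summed reads were from 10 to 11 with vehicle and from 7 to 18 with purmorphamine, and Ptprc, which encodes the pan-leukocyte antigen CD45, had 1 read over all 7 libraries.

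Among the family members, Tec and Bmx were transcribed and exchanged places between the treatments. Tec had 9, 2 and 4 reads in vehicle replicates 2 to 4 and 245, 240, 253 and 226 reads in purmorphamine replicates 5 to 8. The means were 5.0 ± 3.61 reads (SD, n = 3) and 241 ± 11.3 reads (SD, n = 4). Every purmorphamine library lay far above every vehicle library, and the lowest of the former held 25.1 times the reads of the highest of the latter. The ratio of the mean reads was 48.2, with an exact 95% interval of 29.1 to 86.5 that covers counting error only. Bmx ran the other way, with 139, 155 and 117 reads in vehicle replicates 2 to 4, against 13, 7, 7 and 8 in purmorphamine replicates 5 to 8. Its means were 137 ± 19.1 reads with vehicle (SD, n = 3) and 8.75 ± 2.87 reads with purmorphamine (SD, n = 4), so that it was 15.7-fold lower with purmorphamine (95% interval 11.1 to 22.8). The groups did not overlap for Bmx either, and its lowest vehicle library held 9.0 times the reads of its highest purmorphamine library. Over the whole table, groups that did not overlap were found in 29.1% of the tested genes in the direction of Tec and in 20.4% in the direction of Bmx.

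**Figure D1:**
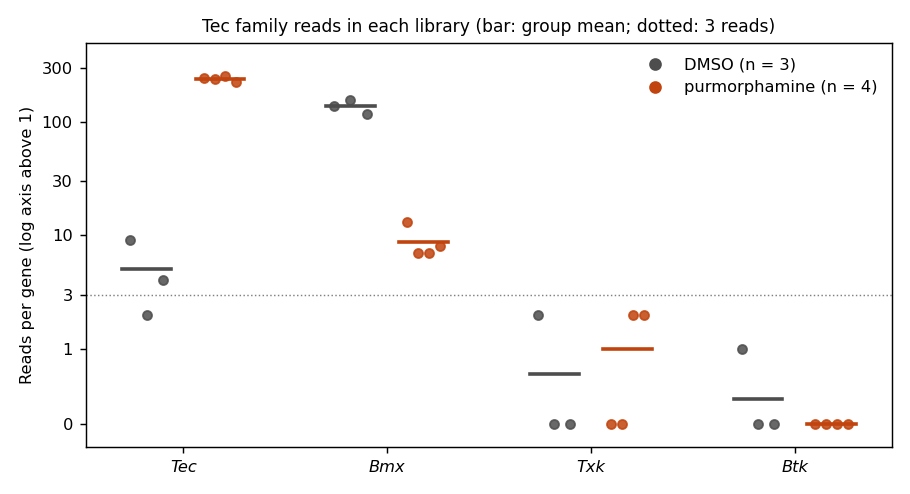
Reads per gene in each library for the 4 family members, with the vehicle libraries in grey (n = 3) and the purmorphamine libraries in orange (n = 4), group means as bars, and an axis that is linear up to 1 read and logarithmic above it. Tec lay between 226 and 253 reads with purmorphamine and between 2 and 9 with vehicle, Bmx between 7 and 13 with purmorphamine and between 117 and 155 with vehicle, and Txk and Btk at 2 reads or fewer in every library.

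On the log2 scale, the fit across all genes put Tec at 5.51 (standard error 0.215) and Bmx at -4.00 (standard error 0.203). Among the 12388 genes tested, Tec had the increase of rank 11 and Bmx the decrease of rank 9. The value for Tec rests on few vehicle reads. Of the 15 vehicle reads, 9 came from vehicle replicate 2, and without that library the log2 fold change was 6.23. The spread between libraries was set against counting noise, which alone gives a variance near the mean. Where each gene was abundant, the variance was 0.534 times the mean for Tec (4 purmorphamine libraries) and 2.66 times for Bmx (3 vehicle libraries). Where each was scarce, it was 2.6 times the mean for Tec with vehicle and 0.943 times for Bmx with purmorphamine. Such ratios are imprecise from 3 or 4 libraries, and a difference between them was not tested.

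Btk and Txk, the members best known from lymphocytes, were at the limit of detection under both conditions. Btk had 1 read in vehicle replicate 2 and none in the other libraries. Txk had 2 reads in each of vehicle replicate 2 and purmorphamine replicates 7 and 8, and none in the remaining 4 libraries. No library exceeded 3 reads, neither gene passed the filter on low counts, and a difference between treatments was not detectable at this depth. Of the 4 members, 2 therefore passed the filter, and both did so through the treatment in which they were abundant.

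The genes lie on chromosomes 5 and X. By the coordinates in the table, which the submitters' processing notes assign to build mm9, Tec (ENSMUSG00000029217) spans chr5:73146757-73259922 and Txk (ENSMUSG00000054892) spans chr5:73087017-73144212, both on the minus strand. Bmx (ENSMUSG00000031377) spans chrX:160630574-160696325 and Btk (ENSMUSG00000031264) spans chrX:131076675-131118309, also on the minus strand. Tec and Txk are thus direct neighbours, with a gap of 2545 bp between the end of Tec and the start of Txk. Although Tec rose to 241 reads, Txk, which lies downstream on the same strand, stayed at 2 reads or fewer in every library.

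The starts of Tec and Bmx are shown to compare the sequence around which their transcription begins, and they differed in base composition. The stretches printed here were taken from RefSeq promoter windows in GRCm38.p6, run 5′ to 3′ on the minus strand, and end where the gene begins in GENCODE M21. They lie at chr5:72868484-72868698 (215 bases) and chrX:164258194-164258443 (250 bases). Capitals mark GC boxes, the letters GGGCGG or their reverse complement, which are bound by factors of the Sp family.
Tec: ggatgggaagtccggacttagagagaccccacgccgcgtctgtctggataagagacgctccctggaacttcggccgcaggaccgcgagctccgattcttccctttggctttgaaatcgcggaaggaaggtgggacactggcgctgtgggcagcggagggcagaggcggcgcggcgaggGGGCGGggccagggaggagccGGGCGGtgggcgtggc
Bmx: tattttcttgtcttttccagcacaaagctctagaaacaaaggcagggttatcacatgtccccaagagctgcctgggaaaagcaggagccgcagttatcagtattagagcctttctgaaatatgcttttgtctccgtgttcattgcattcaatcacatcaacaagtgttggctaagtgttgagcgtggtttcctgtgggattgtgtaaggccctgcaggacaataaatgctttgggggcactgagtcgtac

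Over the whole RefSeq window, which covers 250 bases before and 50 after the start, the Tec promoter was 67.7% G or C and held 33 CpG dinucleotides and 2 GC boxes. The Bmx promoter was 44.7% G or C, with 4 CpG dinucleotides and no GC box. The median over the 32851 promoter windows of this length was 52.7% G or C and 7 CpG dinucleotides, so Tec lay above it and Bmx below it. Promoters of Btk (49.3% G or C, 3 CpG dinucleotides) and Txk (42.7%, 4 CpG dinucleotides in each of its windows) were closer to that of Bmx. A GC box was present in 35.7% of all windows. The letters GACCACCCA, the consensus bound by Gli factors, were searched on both strands and were found in none of the windows of these 4 genes and in 0.253% of all windows. TATAAA, searched likewise, was also absent from the 4 genes and present in 13.6% of all windows. These counts describe windows of 300 bases and do not bear on binding elsewhere.

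Levels were next compared with those of the other cytoplasmic tyrosine kinases, per length. Reads were divided by the length of the merged exons of each gene in GENCODE M21, and 29 kinase genes were compared, the 4 of the Tec family and 25 others. With vehicle, Bmx held 44.3 ± 6.17 reads per kb of exon (SD, n = 3) and ranked 11 to 13 of the 29 in the single libraries, whereas Tec held 1.34 ± 0.963 and ranked 19 to 21. With purmorphamine, Tec held 64.4 ± 3.03 reads per kb (SD, n = 4) and ranked 11 or 12, whereas Bmx held 2.83 ± 0.929 and ranked 19 or 20. One member of the family had thus taken the place in the order that the other held. In vehicle-treated cells Bmx did not differ beyond its spread from its neighbours in the order, Frk at 46.7 ± 1.15 and Tnk2 at 38.6 ± 1.15 reads per kb. In purmorphamine-treated cells the level of Tec was within the spread of that of Tyk2, at 62.6 ± 4.23 reads per kb, and below that of Abl2, at 80.6 ± 4.98. Jak1, the most abundant of the kinases at 499 ± 5.60 reads per kb with vehicle and 518 ± 8.86 with purmorphamine, exceeded both members under each treatment.

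**Figure D2:**
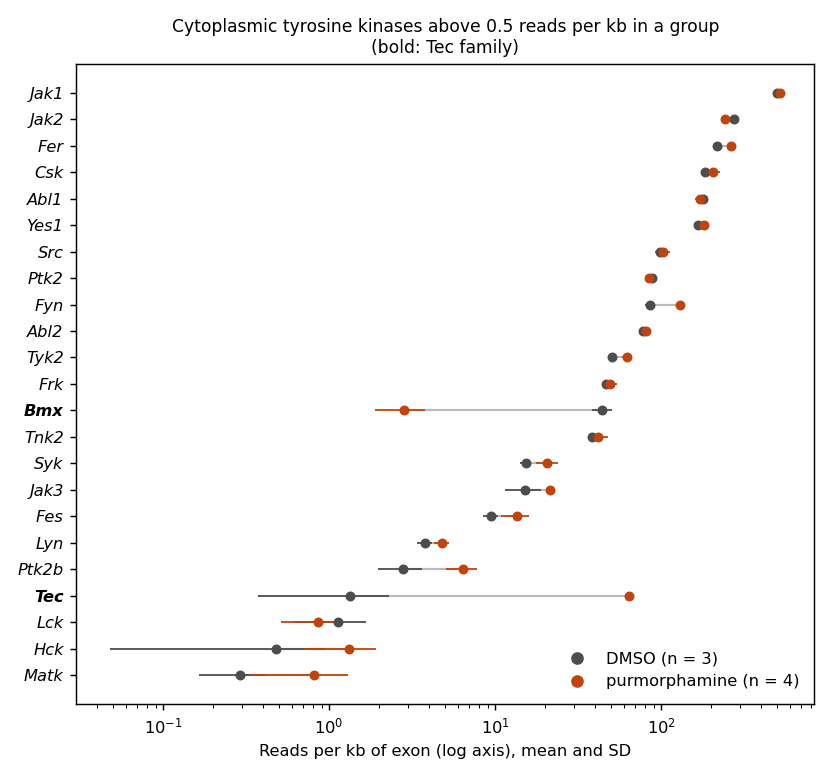
Reads per kb of exon, on a logarithmic axis, for the cytoplasmic tyrosine kinases above 0.5 reads per kb in at least 1 group, as mean and SD for vehicle (grey, n = 3) and purmorphamine (orange, n = 4), with Tec family genes in bold and error bars cut off near 0. Bmx moved from 44.3 to 2.83 reads per kb and Tec from 1.34 to 64.4, whereas the other kinases with at least 10 reads per kb lay within 2-fold of their vehicle values.

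The summed reads of the family changed less than those of either gene. They were 143 ± 19.3 with vehicle (SD, n = 3) and 251 ± 11.7 with purmorphamine (SD, n = 4). As a share of the reads per kb of all 29 kinases, the family made up 2.29%, 2.40% and 1.86% in vehicle replicates 2 to 4 and 3.07%, 2.87%, 3.12% and 2.80% in purmorphamine replicates 5 to 8. The means were 2.18% ± 0.283 with vehicle and 2.97% ± 0.155 with purmorphamine. The share contains Tec and Bmx, which were selected on these reads, so it is a description and was not tested. Nearly all of the family's reads came from Bmx with vehicle and from Tec with purmorphamine.

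The cytoplasmic tyrosine kinases outside the family, which include the Src kinases that activate Tec kinases, showed small changes. Of the 25 with a row, 18 were tested, and 7 were higher and 3 lower at an adjusted p under 0.2 from edgeR (55.6% called, against 62.5% of all genes). Their median log2 fold change was 0.09, where that of all genes was 0.00. With library totals in place of TMM factors, 9 were higher and 1 lower. Fyn, a Src family kinase, had 395, 367 and 352 reads with vehicle, against 574, 583, 564 and 541 with purmorphamine (log2 fold change 0.56, standard error 0.0657, adjusted p = 2.24e-06 from edgeR). Its groups did not overlap. Jak3, which signals from cytokine receptors, rose by 0.44 on the log2 scale (standard error 0.143, adjusted p = 0.0187 from edgeR), and Fes by 0.47 (standard error 0.174, adjusted p = 0.0352 from edgeR) with groups that overlapped. The largest decrease was that of Jak2 (log2 fold change -0.22, standard error 0.0539, adjusted p = 0.00299 from edgeR), followed by Ptk2, the focal adhesion kinase, at -0.10 (adjusted p = 0.0864 from edgeR) and Abl1 at -0.09 (adjusted p = 0.159 from edgeR), whose groups overlapped. Ptk2b, named after its values were seen, was the only tested kinase outside the family with a change of at least 2-fold, from 20.7 ± 6.03 to 47.5 reads (log2 fold change 1.15, standard error 0.235). Src itself, with 433, 427 and 439 reads with vehicle, against 450, 508, 399 and 424 with purmorphamine, was not called, nor were Lyn and Csk.

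PI3K makes the lipid that draws Tec kinases to the membrane, and lipid phosphatases remove it. Of 12 such genes examined, 10 were tested, and 2 were higher and 5 lower (70.0% called, against 62.5% of all genes, with a median log2 fold change -0.10). Pik3r3, a regulatory subunit of PI3K, fell from 2387.0 ± 174 to 1565.0 ± 108 reads (log2 fold change -0.66, standard error 0.0606, adjusted p = 1.14e-07 from edgeR), and its groups did not overlap. Pik3r1, the regulatory subunit p85α, had a log2 fold change of -0.13 (adjusted p = 0.0320 from edgeR) and Inppl1, which encodes the PIP3 phosphatase SHIP2, one of -0.26 (adjusted p = 0.00441 from edgeR). The counts of both overlapped between the groups. The phosphatases Inpp5k and Inpp5e rose by 0.32 and 0.30 on the log2 scale (adjusted p = 0.000106 and 0.00282 from edgeR). The catalytic subunits Pik3ca and Pik3cb were not called.

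Receptors that are known to act through Tec kinases were represented by 10 rows, of which 5 were tested and 4 called, where 62.5% of all genes were called. Tek, the angiopoietin receptor through which Bmx can be activated, had 806, 770 and 816 reads with vehicle, against 1874, 2124, 1947 and 1870 with purmorphamine. The groups did not overlap, and Tek moved in the direction opposite to that of Bmx (log2 fold change 1.25, standard error 0.0561, adjusted p = 1.18e-11 from edgeR). Tlr4, a receptor for bacterial lipopolysaccharide, rose by 0.19 (adjusted p = 0.00487 from edgeR). Tnfrsf1b, which encodes the TNF receptor TNFR2, had a log2 fold change of -0.37 (adjusted p = 0.0271 from edgeR) and Flt1, a VEGF receptor, one of -0.14 (adjusted p = 0.161 from edgeR). The antigen receptor chain Cd79a and the costimulatory receptor Cd28 were not tested, and Kdr, the VEGF receptor of endothelial cells, had at most 4 reads in a library.

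Of the adaptors and substrates, 17 had a row and 15 were tested, and 4 were higher and 5 lower (60.0% called, against 62.5% of all genes). The inositol trisphosphate receptors, which release calcium downstream of phospholipase Cγ, differed in direction. Itpr3 rose from 969 ± 48.0 to 1715.5 ± 161 reads (log2 fold change 0.78, standard error 0.0657, adjusted p = 3.74e-08 from edgeR), whereas Itpr2 fell from 1908.7 ± 112 to 1381.5 ± 80.3 (log2 fold change -0.51, standard error 0.0562, adjusted p = 9.76e-07 from edgeR). In both genes the groups did not overlap. Vav2, an exchange factor for small GTPases, rose by 0.46 and Stat5b by 0.23 on the log2 scale (adjusted p = 3.89e-06 and 0.00311 from edgeR). Dok1, a docking protein, fell by 0.40 and Stat3, a transcription factor that Bmx can activate, fell by 0.18 (adjusted p = 0.000969 and 0.00254 from edgeR). Plcg1, the phospholipase Cγ of most tissues, was not called, at 2272.7 ± 50.5 reads with vehicle and 2367.8 with purmorphamine.

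All 7 of the regulators examined were tested, and 2 were higher and 2 lower (57.1% called, against 62.5% of all genes). Cav1, which encodes caveolin-1, a membrane protein known to bind Btk and to restrain its activity, had 762, 738 and 822 reads with vehicle, against 255, 298, 265 and 262 with purmorphamine. The purmorphamine libraries all lay below the vehicle libraries (log2 fold change -1.57, standard error 0.0701, adjusted p = 1.08e-11 from edgeR). Ptpn6, which encodes the phosphatase SHP-1, rose from 36.0 ± 7.55 to 74.0 ± 6.83 reads (log2 fold change 0.99, standard error 0.168, adjusted p = 0.000119 from edgeR). Ptpn11, which encodes the phosphatase SHP-2, had a log2 fold change of -0.12 (adjusted p = 0.0373 from edgeR). Ibtk and Sh3bp5, both inhibitors of Btk, were not called. Over receptors, adaptors, substrates and regulators together, 8 were higher and 9 lower of 27 tested (63.0% called, against 62.5% of all genes), and with library totals in place of TMM factors 9 were higher and 6 lower.

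**Figure D3:**
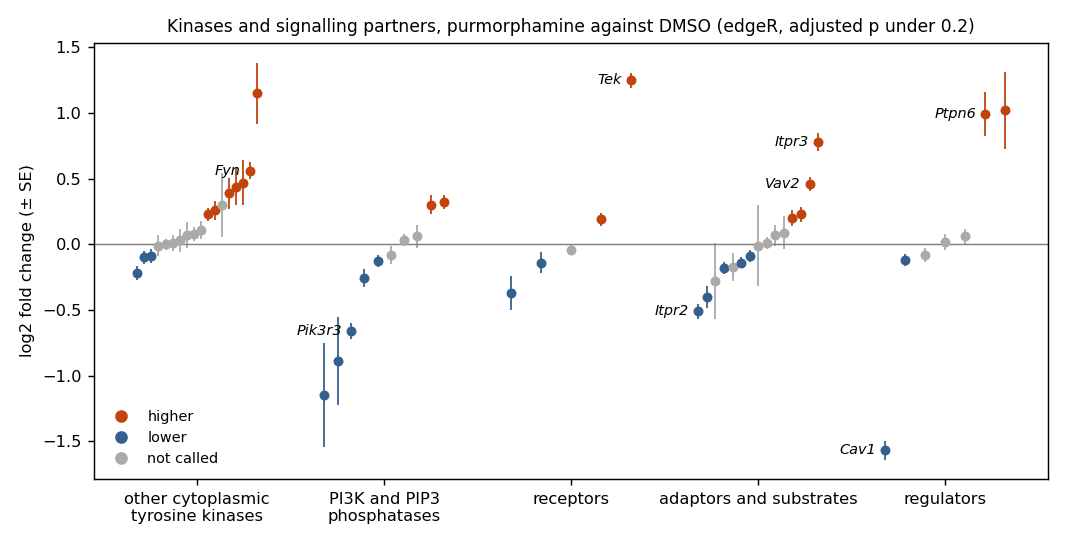
Log2 fold changes of purmorphamine against vehicle with their standard errors from edgeR for the tested genes of each list, in orange where higher and blue where lower at an adjusted p under 0.2, and in grey where not called. Tek at 1.25 and Cav1 at -1.57 stood farthest from 0 among the genes labelled, and most others were less than 1 from it.

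Genes on either side of the family members were then examined, within 500 kb. Of the 34 neighbours examined, 29 were tested, and 8 were higher and 12 lower (69.0% called, against 62.5% of all genes, with a median log2 fold change -0.05). Reads were counted on the sense strand in stranded libraries, so the counts of neighbours on opposite strands are separate.

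Near Bmx, 7 genes were tested, and 1 was higher and 3 lower (57.1% called, against 62.5% of all genes). Pir, which encodes the nuclear protein pirin and lies 10778 bp from Bmx, moved the opposite way, with 206, 222 and 255 reads with vehicle, against 308, 314, 295 and 283 with purmorphamine (log2 fold change 0.35, standard error 0.0877, adjusted p = 0.00345 from edgeR). Figf, which encodes the growth factor VEGF-D and lies 115 kb from Bmx on the same side, fell from 1277.7 ± 19.6 to 821.8 ± 42.6 reads (log2 fold change -0.68, standard error 0.0519, adjusted p = 9.59e-09 from edgeR). On the other side Siah1b, 116 kb away, was not called, and Car5b, a mitochondrial carbonic anhydrase at 164 kb, fell from 470 ± 16.4 to 322 ± 8.10 reads (log2 fold change -0.59, adjusted p = 1.21e-06 from edgeR). None of these 7 genes changed by 2-fold or more, against the 15.7-fold difference in Bmx.

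On the side of Tec where Txk lies, Nipal1, a member of a family of magnesium transporters, lies a further 24.5 kb beyond Txk. It had 12, 13 and 4 reads with vehicle, against 65, 73, 67 and 53 with purmorphamine, and rose by 2.68 on the log2 scale (standard error 0.265, adjusted p = 2.72e-07 from edgeR). Txk, between both genes that rose, was at 2 reads or fewer. Slain2, 45.4 kb from Tec on the other side, rose from 1258.7 ± 54.0 to 1642.5 ± 52.7 reads (log2 fold change 0.34, standard error 0.0494, adjusted p = 2.65e-05 from edgeR), as did Nfxl1, 136 kb beyond Txk, by 0.26 (adjusted p = 0.00397 from edgeR). Fryl, 151 kb from Tec, was not called. Of the 7 tested neighbours of Tec, 3 were higher and the other 4 were not called (42.9% called, against 62.5% of all genes).

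Btk lies between genes that were read in every library. Timm8a1, which encodes a chaperone of the mitochondrial intermembrane space and is 71 bp from Btk, had between 20 and 37 reads. Rpl36a, which encodes a ribosomal protein and is 1684 bp away on the other side, had between 3856 and 4493 reads, and Gla, which encodes the lysosomal α-galactosidase A and is 4179 bp away, had between 213 and 297. Btk, with a single read in all 7 libraries, was thus not detectable although both flanks were transcribed. Of these neighbours, Rpl36a had a log2 fold change of -0.14 (adjusted p = 0.0252 from edgeR) with overlapping groups, and Gla one of -0.37 (adjusted p = 0.00122 from edgeR). Drp2, 85.4 kb from Btk, which encodes a relative of dystrophin, fell from 496 ± 14.6 to 113 ± 11.5 reads (log2 fold change -2.18, standard error 0.0867, adjusted p = 2.34e-12 from edgeR).

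**Figure D4:**
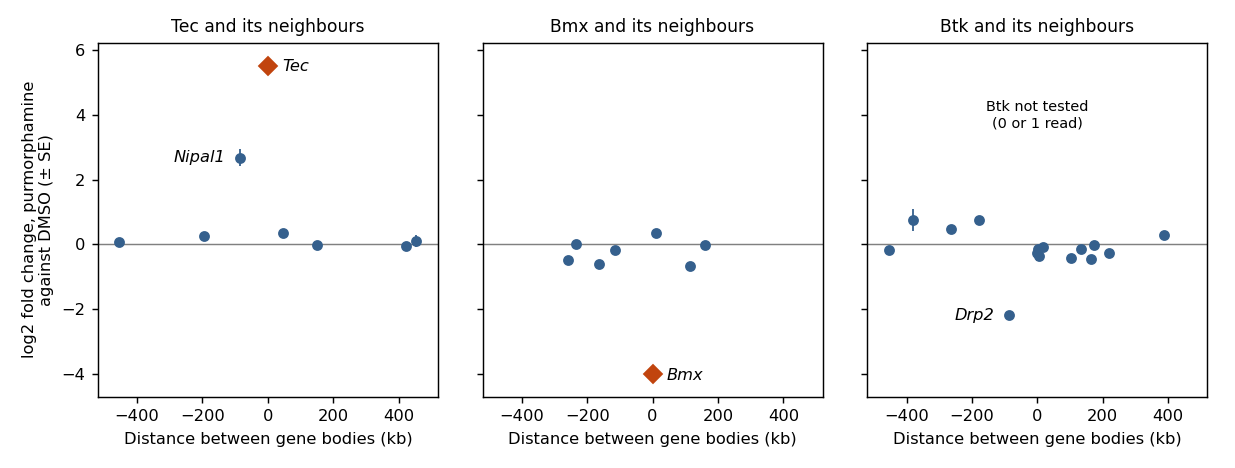
Log2 fold changes of purmorphamine against vehicle, with standard errors from edgeR, of the tested genes within 500 kb of Tec, Bmx and Btk, plotted against the distance between gene bodies, with Tec and Bmx as orange diamonds. Nipal1 was at 2.68 near Tec at 5.51, Drp2 was at -2.18 near Btk, and the other neighbours, those of Bmx at -4.00 included, lay within 1 of 0.

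The genes whose pattern over the 7 libraries was most like that of Tec or Bmx were found by the root mean square distance between log2 CPM values, each centred on its mean. For Tec these were Cdh17, a cadherin of liver and intestine, at a distance of 0.383, Itih3, a plasma protein that binds hyaluronan, at 0.505, Hhip, an inhibitor of Hedgehog ligands that is itself a Hedgehog target, at 0.57, and Sprr3, a protein of the epidermal barrier, at 0.58. The median gene lay at 2.60 from Tec. Cdh17 had 5, 3 and 6 reads with vehicle, against 187, 171, 198 and 227 with purmorphamine. With vehicle Itih3 had no read and Hhip had 1, 1 and 0. Their log2 fold changes were 9.02 and 7.66, against 5.51 for Tec. The 2 reads added before log2 narrow such differences near 0 reads. For Bmx these were Clca5, at a distance of 0.245, Scube3, a secreted protein with EGF-like repeats, at 0.284, Serpina3n, a serine protease inhibitor, at 0.288, and Plxnb3, a semaphorin receptor, at 0.324, where the median gene lay at 1.88. Serpina3n had 307, 325 and 379 reads with vehicle, against 23, 24, 18 and 22 with purmorphamine. Sprr3, Clca5 and Serpina3n belong to families of similar genes in clusters, and reads may be divided among such copies. Likeness here reflects mainly the difference between the treatments, which all of these genes share.

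Bmx and Tek are known from endothelial cells, and markers of that cell type were counted as well. Of 11 listed markers 10 had a row, and 3 were above 3 reads in every library. Their summed reads were from 1017 to 1098 with vehicle and from 2353 to 2680 with purmorphamine, and most were reads of Tek and of Ramp2, which modulates the adrenomedullin receptor. Ramp2 rose from 217 ± 13.9 to 441 ± 35.0 reads (log2 fold change 0.98, adjusted p = 4.11e-08 from edgeR). Of the defining markers, Pecam1 had between 1 and 5 reads and Tie1 1 read in all. Cdh5, which encodes VE-cadherin, rose with Tek and Ramp2, from no read with vehicle to 21, 26, 22 and 24 with purmorphamine (adjusted p = 3.76e-07 from edgeR), at least 7.75-fold higher if 3 reads per library are taken as the floor. The part of these markers in the values of Tec and Bmx was not tested. In vehicle-treated cells Bmx had a mean of 137 reads. Pecam1, Cdh5, Kdr, Tie1, Emcn, Vwf and Esam held 5 reads or fewer in every vehicle library. In the same libraries Tek had 806, 770 and 816 reads, Ramp2 had 209, 209 and 233, and Egfl7 had 26, 26 and 42. Egfl7 did not rise with purmorphamine and was not called (log2 fold change -0.34). In bulk libraries such as these, fewer cells of a type and less RNA per cell cannot be told apart.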

How the data were processed

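RNA was sequenced by the authors from stranded total RNA libraries depleted of ribosomal RNA. Per the submitters' processing notes, STAR 2.5.3a and build mm9 were used. The annotation is not given in the sources used here. The authors resampled the reads to equal numbers and deposited whole-number counts of sense-strand reads per gene.

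All 7 libraries were mapped to a treatment by their titles. edgeR 4.0.16 (R 4.3.3, limma 3.58.1) was run with TMM scaling, filterByExpr at its defaults (minimum count 10, total 15) and a quasi-likelihood test with no covariates, with Benjamini-Hochberg adjustment over 12388 genes and calls at an adjusted p under 0.2, the study's FDR. Each standard error was the log2 fold change divided by the square root of F. Intervals of ratios were exact (binomial, scipy 1.17.1). The family members and lists were chosen with earlier results of these data known. A few genes are not reported here; they stayed in the fit and were left out of the lists, the neighbours, the figures and the search for like patterns.

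Genes named were the family members, up to 3 called increases and 3 called decreases per list (mean 50 reads or more), the 2 nearest neighbours on each side, the 4 genes closest in pattern to Tec and to Bmx (2 reads added before log2), and marker genes. Strand and exon length were taken from GENCODE M21 by Ensembl identifier, which matched 95.5% of genes. The fit was tested on simulated counts with known changes. Alternatives were other scaling and filters, DESeq2 1.42.0, limma-voom (the study's test), a stricter threshold and each library left out.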

Additional observations from a re-analysis of the deposited data

Results flagged for a closer look

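For Bmx, 1 purmorphamine library lay away from the rest. Replicate 5 had 13 reads where replicates 6, 7 and 8 had 7, 7 and 8, and after TMM scaling its distance from replicate 8 was 0.832 of the group's whole range, above the limit of Dixon's test for 4 samples. Without that library the log2 fold change of Bmx was -4.24. For Pik3r1, a regulatory subunit of PI3K, replicate 7 had 2747 reads where the other purmorphamine libraries had 2587, 2583 and 2600, a distance of 0.886 of the range after scaling. Of the 48 genes examined in this way 2 stood apart, where chance gives about 2.4 (1 in 20 groups).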

How the results depend on the processing

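No paired analysis was possible because no replicate number occurs in both groups. Over 173 values from alternatives for 14 results, 166 kept their direction and stayed within the spread between libraries or, for counts of genes, within 1.5 times the main count, 7 moved and none reversed. The log2 fold change of Tec ran from 5.14 (without DMSO replicate 3) to 6.23 (without DMSO replicate 2) with single libraries left out, and that of Bmx from -4.24 to -3.89. The number of lower kinases outside the family, 3, was 1 with library totals alone, 1 at an adjusted p under 0.05, and from 1 (without purmorphamine replicate 5) to 3 with single libraries left out. The number of lower PI3K and phosphatase genes, 5, was 3 with at least 10 reads required in every library, where 8 of them were tested. Pik3r5 (2, 9, 4 and 7 reads with purmorphamine) and Inpp4b (6, 13, 16 and 8) were called lower in the main fit. Both had libraries under 10 reads and dropped out under that filter. At an adjusted p under 0.05, Ptk2 and Abl1 (adjusted p = 0.0864 and 0.159 from edgeR) were no longer called lower. The 6.23 for Tec was obtained without the library that held 9 of its 15 vehicle reads. The cause of the remaining shifts was not tested. The family's share of kinase reads, with no division by length, was 1.02% with vehicle and 1.69% with purmorphamine. Btk and Txk could not be fitted under the filter, and no alternative value is given for them. Tec and Bmx also had libraries under 10 reads, so neither has a value where at least 10 reads were required in every library. Library totals in place of TMM factors moved the median log2 fold change of all genes by 0.0475. Depth limits what can be said of Btk and Txk, and of Tec with vehicle and Bmx with purmorphamine, where few reads were counted.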

Other observations

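Pik3r6, a regulatory subunit of PI3K that did not pass the filter on low counts, had no reads with vehicle and 13, 9, 7 and 10 with purmorphamine, at least 3.25-fold higher against 3 reads in a library. It was named after its values were seen.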
